A study of Mus musculus with 11 samples.

Results

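Collagen genes encode the chains of the triple-helical proteins that make up most of the extracellular matrix, and they were examined here class by class in mouse primary myoblasts. Members were all genes with a symbol of the form Col, number, a, number whose normalized read count (reads divided by a size factor per library) reached 10 in 2 or more of the 11 libraries. The table held 43 such genes, and 34 of them passed, among 14729 genes that passed the same filter. By class, 11 were fibrillar, 4 basement membrane and 19 of other kinds. The other kinds comprised 4 beaded filament, 4 FACIT, 2 multiplexin, 3 short-chain network, 1 anchoring fibril and 4 transmembrane collagens, and Col26a1, which was left unclassed.

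The myoblasts, the dividing precursors of muscle fibres, came from the tibialis anterior muscle of C57BL/6 mice aged about 8 weeks. Cells were either wild-type or Bmal1-/-, labelled as lacking the circadian transcription factor BMAL1, whose gene is listed as Arntl in the annotation. All were grown in Ham's F-10 medium with 20% FBS and 2.5 ng/ml bFGF and then kept for 6 h in 21% O2 (normoxia) or 1% O2 (hypoxia). The 4 groups were wild-type in normoxia (2 libraries), wild-type in hypoxia (3), Bmal1-/- in normoxia (3) and Bmal1-/- in hypoxia (3), each sequenced from 1 µg of total RNA with a stranded kit. The labels give neither the deleted part of Bmal1 nor whether the deletion was whole-body, and they do not say whether libraries of 1 group came from separate cultures or animals. The p-values therefore reflect no more than the scatter among these libraries, possibly technical.

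Each collagen molecule is a triple helix of chains, either identical or the products of different genes, and the classes differ in how the molecules assemble. Fibrillar collagens form the banded fibres of connective tissue, whereas collagen IV forms the sheet-like network of basement membranes, which ensheathes every muscle fibre and encloses its stem cells. Collagen VI makes beaded filaments at the border of the basement membrane and is known in muscle because mutations in its genes cause congenital muscular dystrophy. Chains are hydroxylated and folded in the endoplasmic reticulum, exported, trimmed outside the cell and cross-linked by lysyl oxidases.

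Arntl, the targeted gene, had normalized counts of 264.5 and 267.1 in wild-type normoxia, 325.0, 327.5 and 321.8 in wild-type hypoxia, 109.2, 117.4 and 98.8 in Bmal1-/- normoxia and 128.0, 134.4 and 128.1 in Bmal1-/- hypoxia. All 6 Bmal1-/- libraries were below all 5 wild-type libraries, with a log2 difference of -1.29 in normoxia, but reads of the gene remained. Depth was 18707697 to 33613328 reads per library. Myogenic genes identified the cells, Myod1 at 7793 to 9502 normalized counts and Desmin (Des) at 6927 to 8391. Markers of endothelial cells summed to 23.3 to 62.2 normalized counts per library over 6 genes, and those of leukocytes to 16.2 to 50.3 over the 4 of 6 genes in the table.

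Levels were compared between genes as normalized read count per kb of merged exons. The highest median level over the 11 libraries was that of Col5a2 at 1796 per kb, the chain that pairs with Col5a1 in collagen V, a regulator of fibril diameter. Col3a1, the only chain of collagen III of soft connective tissue, followed at 1353 per kb. Col4a1, the main chain of the collagen IV network, came next at 1265 per kb. Col8a1, of the short-chain network collagen VIII, stood at 468.5 per kb, and Col18a1, a basement membrane proteoglycan collagen and the source of endostatin, stood at 409.3 per kb. The chains of collagen I, the bulk collagen of tendon and bone, were lower in these cells, at 328.6 per kb for Col1a2 and 252.7 per kb for Col1a1. By the length of the longest annotated transcript instead of merged exons, Col1a2 moved from rank 8 to rank 4, while Col5a2, Col3a1 and Col4a1 kept ranks 1 to 3. At the other end, Col4a4 had a median of 0.806 per kb.

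**Figure D1:**
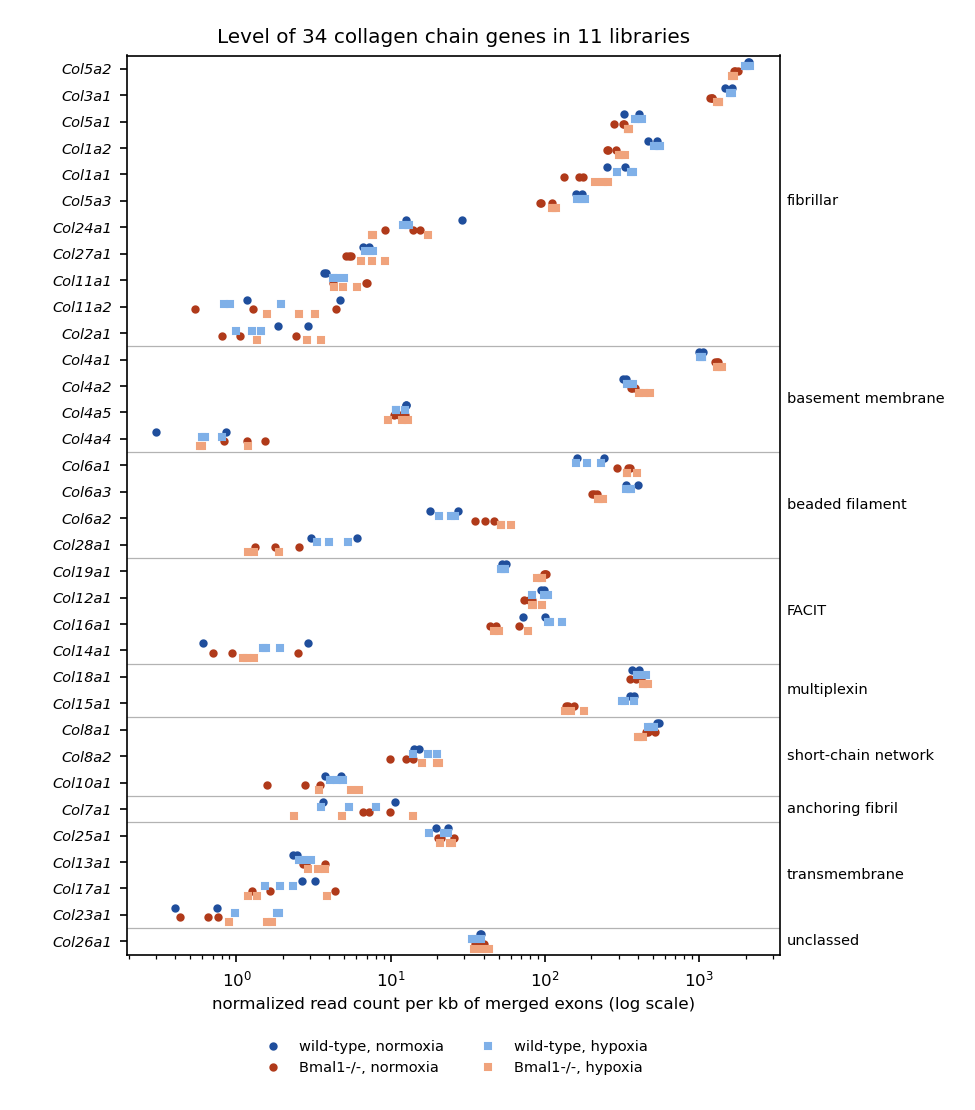
Normalized read count per kb of merged exons (log scale) of the 34 collagen genes, by class, with 1 point per library and the 4 groups by colour and marker. Col5a2, Col3a1 and Col4a1 lie at the right in every group, and levels reach down to that of Col4a4, with a median of 0.806 per kb.

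The filter left out 9 collagen genes of the table. They were Col9a1, Col9a2, Col9a3 and Col20a1 among the FACITs, Col4a3 and Col4a6 of the basement membrane, and the collagen VI chains Col6a4, Col6a5 and Col6a6. The highest value any of them reached was 15.5 normalized counts, for Col6a5 in 1 library. Col20a1 had a highest value of 9.99, also in 1 library, and no more than 3.88 in the others. Just inside the filter, Col23a1, a transmembrane collagen, was at 2.28 to 10.9 normalized counts over the libraries. Col22a1 was not analysed here.

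Between genotypes in normoxia, the called fibrillar genes were all lower in Bmal1-/- cells, and the 1 called basement membrane gene, Col4a1, was higher. In Bmal1-/- myoblasts 5 of 11 fibrillar genes fell and none rose, with a median log2 difference of -0.60 over the class. Of the 4 basement membrane genes 1 rose and none fell (median 0.25), and of the 19 others 3 rose and 2 fell (median -0.18). Over all 34 members this made 4 risen and 7 fallen, where 3.44% of all genes tested rose and 5.66% fell, and the median log2 difference over all genes was 0.00. In hypoxia, 5 members rose and 10 fell, beside 3.33% and 5.61% of all genes. There, 5 fibrillar genes fell and none rose (median -0.27), 2 basement membrane genes rose and none fell (median 0.22), and 3 of the others rose and 5 fell (median 0.03). Differences are on the scale log2(normalized count + 1), and a gene was called where limma's Benjamini-Hochberg adjusted p over all 14729 genes was under 0.05.

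The genotype comparisons in normoxia and in hypoxia share no libraries, but share 1 estimate of the spread per gene from all 11 libraries. In both, 7 members fell (Col1a1, Col1a2, Col3a1, Col5a2, Col5a3, Col6a3 and Col15a1) and 4 rose (Col4a1, Col6a1, Col6a2 and Col19a1). A further 4 were called in hypoxia alone, with Col4a2 higher and Col8a1, Col16a1 and Col28a1 lower, and 19 were called in neither. The share of all genes called in both comparisons was not computed, so how unusual this recurrence is was not tested. Whether the genotype difference itself depended on oxygen was tested as an interaction, and 0 of 34 members passed in limma, edgeR and DESeq2, with 1 at an unadjusted p under 0.05 in each. Over all genes 0.00679% passed the interaction test in limma, and the share at an unadjusted p under 0.05 was not computed. Across all 11 libraries, 4 members (Col4a1, Col6a1, Col6a2 and Col19a1) were higher in every Bmal1-/- library than in every wild-type one, as were 4.05% of all genes. Another 7 (Col1a2, Col3a1, Col5a2, Col5a3, Col6a3, Col15a1 and Col28a1) were lower in every Bmal1-/- library, as were 6.28% of all genes. Of these, Col28a1 reached 10 normalized counts in 5 wild-type libraries and 1 Bmal1-/- library, so it passed the filter only through the genotype where it was high and had to be lower in the other. Without it, 9 members fell in hypoxia and 6 were lower in every Bmal1-/- library.

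**Figure D2:**
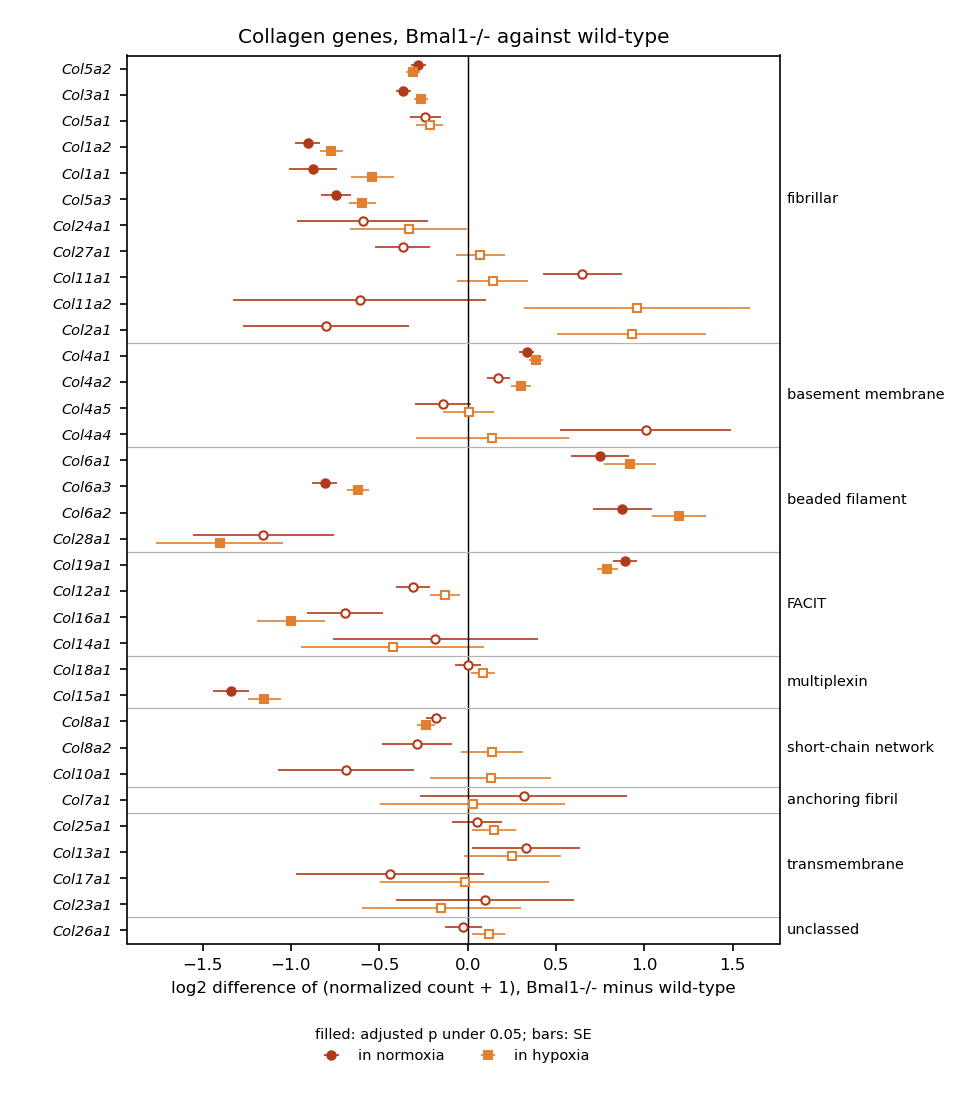
Log2 difference of (normalized count + 1), Bmal1-/- minus wild-type, for each of the 34 collagen genes in normoxia and in hypoxia; bars are standard errors and filled symbols mark an adjusted p under 0.05. The filled fibrillar symbols all lie left of 0, those of Col4a1 and Col4a2 right of 0, and collagen VI has Col6a1 and Col6a2 to the right and Col6a3 to the left.

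Among the fibrillar genes, Col1a2 (GRCm38 chromosome 6, 4504814 to 4541544, plus strand), the second chain of collagen I, had normalized counts of 5748 and 6649 in normoxic and of 6793, 6292 and 6926 in hypoxic wild-type libraries. It was at 3171, 3161 and 3580 in normoxic and at 4083, 3893 and 3747 in hypoxic Bmal1-/- libraries. The lowest wild-type library was thus above the highest Bmal1-/- library. The log2 difference was -0.91 (adjusted p = 2.39e-06, SE 0.07) in normoxia and -0.77 (adjusted p = 3.29e-06, SE 0.06) in hypoxia, or 1.87-fold and 1.71-fold lower. In bulk libraries, fewer cells of a kind and less RNA per cell cannot be told apart, here and in all that follows.

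Col1a1 (chromosome 11, 94936224 to 94953042), the main chain of collagen I, was at 1659 and 2169 in wild-type normoxia, 2432, 1917 and 2365 in wild-type hypoxia, 1088, 874.5 and 1159 in Bmal1-/- normoxia and 1676, 1554 and 1381 in Bmal1-/- hypoxia. Within each oxygen level the genotypes did not overlap, but the highest hypoxic Bmal1-/- library slightly exceeded the lowest normoxic wild-type one. The log2 difference was -0.88 (adjusted p = 0.0012, SE 0.14) in normoxia and -0.54 (adjusted p = 0.014, SE 0.12) in hypoxia. The call in hypoxia was lost without wild-type hypoxia replicate 1 (adjusted p = 0.062), wild-type hypoxia replicate 3 (0.055) or Bmal1-/- hypoxia replicate 3 (0.064), and in limma with no mean-variance trend (0.073). Per kb, Col1a1 stood at 0.524 to 0.777 of Col1a2 over the libraries, with ratios of 0.546 and 0.618 in wild-type normoxia and 0.524 to 0.650 in Bmal1-/- normoxia. In hypoxia the ratio was 0.577 to 0.678 in wild-type and 0.698 to 0.777 in Bmal1-/- libraries. The genotypes overlapped in this ratio in normoxia and not in hypoxia, and no test was run on it.

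Col3a1 and Col5a2, neighbours on chromosome 1 (45311538 to 45349706, plus strand, and 45374321 to 45503282, minus strand) whose 3′ ends lie 24614 bp apart, both fell by smaller amounts. Col3a1 was at 14380 and 15912 in wild-type normoxia, 15540, 15948 and 15678 in wild-type hypoxia, 11814, 11541 and 11888 in Bmal1-/- normoxia and 13278, 13141 and 12801 in Bmal1-/- hypoxia. Its log2 difference was -0.36 (adjusted p = 1.0e-04, SE 0.04) in normoxia and -0.27 (adjusted p = 5.0e-04, SE 0.04) in hypoxia. Although modest in fold, the decrease separated all libraries by genotype. Col5a2 was at 19915 and 20308 in wild-type normoxia, 19091, 20584 and 19547 in wild-type hypoxia, 16316, 17228 and 16205 in Bmal1-/- normoxia and 15607, 16002 and 16161 in Bmal1-/- hypoxia. The log2 difference was -0.28 (adjusted p = 8.2e-04, SE 0.04) in normoxia and -0.31 (adjusted p = 1.1e-04, SE 0.04) in hypoxia, again with no overlap.

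Of the 3 chains of collagen V, Col5a3 showed the largest genotype difference. Col5a3 (chromosome 9, 20770050 to 20815067), the least abundant of them per kb, was at 1081 and 1192 in wild-type normoxia, 1179, 1092 and 1238 in wild-type hypoxia, 633.0, 643.4 and 760.9 in Bmal1-/- normoxia and 801.1, 762.9 and 753.3 in Bmal1-/- hypoxia. All Bmal1-/- libraries were below all wild-type ones, and the log2 difference was -0.75 (adjusted p = 6.7e-05, SE 0.08) in normoxia and -0.60 (adjusted p = 1.5e-04, SE 0.08) in hypoxia. Col5a1, at 2745 to 3643 in wild-type and 2383 to 2958 in Bmal1-/- libraries, did not pass in either comparison. Its log2 differences were -0.24 (adjusted p = 0.11, SE 0.09) and -0.22 (adjusted p = 0.12, SE 0.08), near those of Col5a2 but with larger SEs. Without wild-type normoxia replicate 1, its lowest wild-type library, Col5a1 passed in normoxia (adjusted p = 0.014) and in hypoxia (0.039). That fit leaves 1 wild-type normoxic library, which is assumed to vary like the other groups, here and wherever one of these 2 libraries is left out. It also passed in hypoxia without wild-type normoxia replicate 2 (0.039) and when only the hypoxic libraries were fitted (0.020).

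The other 5 fibrillar genes were at low counts and were called in no comparison. Col27a1, a long fibrillar chain of cartilage, was at 67.0 to 119.9 normalized counts, Col11a1 at 46.8 to 89.4 and Col24a1 at 57.2 to 219.5. Against the direction of the called fibrillar genes, Col11a1 was higher in Bmal1-/- normoxia, by 0.65 on the log2 scale (limma adjusted p = 0.095). Col2a1, the cartilage collagen, was at 7.50 to 32.7 and Col11a2 at 3.72 to 32.1. Col11a2 had the widest spread of all members, a mean coefficient of variation within groups of 67.2%. For Col2a1 and Col11a2 the log2 difference between genotypes was negative in normoxia (-0.80 and -0.61) and positive in hypoxia (0.93 and 0.96), with none past the test and SEs larger than those of any called fibrillar gene.

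In the basement membrane class, Col4a1 (chromosome 8, 11198423 to 11312826, minus strand) was at 7487 and 7888 in wild-type normoxia, 7550, 7816 and 7758 in wild-type hypoxia, 9445, 9700 and 9910 in Bmal1-/- normoxia and 10041, 10424 and 9774 in Bmal1-/- hypoxia. Every Bmal1-/- library was above every wild-type library. The log2 difference was 0.33 (adjusted p = 1.7e-04, SE 0.04) in normoxia and 0.39 (adjusted p = 1.3e-05, SE 0.04) in hypoxia, or 1.26-fold and 1.31-fold higher. Col4a2, the partner chain in the same trimer, was at 2123 and 2217 in wild-type normoxia, 2265, 2477 and 2337 in wild-type hypoxia, 2421, 2380 and 2536 in Bmal1-/- normoxia and 2682, 3164 and 2891 in Bmal1-/- hypoxia. It was higher in hypoxia with a log2 difference of 0.30 (adjusted p = 0.0045, SE 0.06), while in normoxia the difference of 0.17 (adjusted p = 0.13, SE 0.07) did not pass. Per kb, Col4a1 exceeded Col4a2 by a ratio of 2.80 to 3.61 over the libraries. Col4a5 and Col4a4, chains of other collagen IV trimers, were at 64.6 to 86.3 and 3.21 to 16.3 normalized counts and passed in no comparison.

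Col4a1 and Col4a2 lie head to head, with annotated start sites 21 bp apart and 22 bp of overlap on opposite strands, so that a single stretch of DNA holds both starts. Their RefSeq promoters (GRCm38.p6, 250 bases before to 50 after the start) are shown because these neighbours were both higher in Bmal1-/- than in wild-type cells in hypoxia; the windows share 78 bases. They lie at chr8:11312777-11313076, minus strand, and chr8:11312555-11312854, plus strand. Capitals mark hits of the motifs searched.
Col4a1: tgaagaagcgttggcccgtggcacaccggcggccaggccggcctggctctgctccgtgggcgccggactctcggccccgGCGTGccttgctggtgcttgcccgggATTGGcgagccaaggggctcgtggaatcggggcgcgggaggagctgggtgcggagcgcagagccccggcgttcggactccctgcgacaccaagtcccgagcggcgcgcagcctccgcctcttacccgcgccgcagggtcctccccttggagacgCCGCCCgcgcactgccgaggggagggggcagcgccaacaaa
Col4a2: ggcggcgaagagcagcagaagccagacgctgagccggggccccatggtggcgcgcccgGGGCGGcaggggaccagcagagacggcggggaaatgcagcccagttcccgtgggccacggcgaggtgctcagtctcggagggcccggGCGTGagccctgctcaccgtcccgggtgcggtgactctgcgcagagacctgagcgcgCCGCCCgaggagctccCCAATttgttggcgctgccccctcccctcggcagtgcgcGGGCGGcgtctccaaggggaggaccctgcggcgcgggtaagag

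The 6 motifs searched were the E-box CACGTG, the hypoxia-response core ACGTG, the related core GCGTG, the CCAAT box, the GC box GGGCGG and the TATA box sequence TATAAA. Each was searched on both strands, so that a hit on the other strand reads as its reverse complement. CACGTG holds ACGTG on both strands. Both collagen IV windows held the GCGTG core, the CCAAT box and the GC box, and neither held the E-box. The GC box of the Col4a1 window lies in the shared bases and is the same site as the last GC box of the Col4a2 window. RefSeq promoters were found for 28 of 34 members, 30 promoters in all, and not for Col12a1, Col14a1, Col1a1, Col26a1, Col2a1 and Col5a2. CACGTG was in 0 of 30 collagen promoters and in 7.15% of all 32851 promoters. ACGTG was in 4 (13.3%, against 19.6% of all), GCGTG in 9 (30%, against 32.4%) and CCAAT in 11 (36.7%, against 37.4%). GGGCGG was in 18 (60%, against 35.7%) and TATAAA in 5 (16.7%, against 13.6%). These are descriptions of the windows, and absence says only that the letters are not there.

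The collagen VI genes split by chain. Col6a3 (chromosome 1, 90765923 to 90843971, minus strand), the large chain of the collagen VI trimer, was at 3999 and 4805 in wild-type normoxia, 4252, 4010 and 4327 in wild-type hypoxia, 2621, 2410 and 2473 in Bmal1-/- normoxia and 2661, 2866 and 2666 in Bmal1-/- hypoxia. It fell, with a log2 difference of -0.81 (adjusted p = 5.8e-06, SE 0.07) in normoxia and -0.62 (adjusted p = 2.1e-05, SE 0.06) in hypoxia and no overlap between genotypes. Col6a1 (chromosome 10, 76708792 to 76726168, minus strand) went the other way, from 704.6 and 1056 in normoxic and 1011, 697.2 and 815.4 in hypoxic wild-type libraries to 1520, 1281 and 1558 in Bmal1-/- normoxia and 1742, 1498 and 1494 in Bmal1-/- hypoxia. Again no Bmal1-/- library overlapped a wild-type one. The log2 difference of Col6a1 was 0.75 (adjusted p = 0.011, SE 0.16) in normoxia and 0.92 (adjusted p = 0.0010, SE 0.15) in hypoxia.

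Col6a2 (chromosome 10, 76595762 to 76623630, minus strand), which lies in tandem with Col6a1 at a gap of 85161 bp, rose too. Its normalized counts were 148.8 and 227.2 in wild-type normoxia, 216.3, 170.8 and 206.0 in wild-type hypoxia, 391.0, 291.1 and 339.7 in Bmal1-/- normoxia and 499.5, 430.5 and 429.4 in Bmal1-/- hypoxia. The genotypes were fully apart, by a log2 difference of 0.88 (adjusted p = 0.0050, SE 0.17) in normoxia and 1.20 (adjusted p = 1.5e-04, SE 0.15) in hypoxia. In normoxia both calls were lost without wild-type normoxia replicate 1, with adjusted p = 0.15 for Col6a1 and 0.079 for Col6a2, which left 2 risen members in that comparison. In limma with no trend Col6a1 was lost in normoxia as well (0.064). Both hypoxia calls passed under each alternative run.

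Accordingly, the per-kb ratio of Col6a1 to Col6a3 was 0.475 to 0.650 in wild-type libraries and 1.43 to 1.79 in Bmal1-/- libraries. The ratio of Col6a2 to Col6a3 was 0.053 to 0.073 in wild-type and 0.174 to 0.270 in Bmal1-/- libraries. Both ratios were chosen after their values were seen. With the length of the longest transcript the Col6a1 to Col6a3 ratio was 0.429 to 0.586 and 1.29 to 1.61, also without overlap. Col28a1, a distant relative of collagen VI, was at 15.0 and 29.7 in wild-type normoxia, 16.2, 26.0 and 19.4 in wild-type hypoxia, 12.4, 8.75 and 6.51 in Bmal1-/- normoxia and 5.82, 6.36 and 9.22 in Bmal1-/- hypoxia. It was the only called member with a median under 100 normalized counts. As it passed the filter through wild-type libraries only, its difference is given as a description. Its log2 difference was -1.16 (adjusted p = 0.094, SE 0.40) in normoxia and -1.40 (adjusted p = 0.025, SE 0.36) in hypoxia. The hypoxia call was lost without wild-type hypoxia replicate 2 (adjusted p = 0.11) or 3 (0.067), or Bmal1-/- hypoxia replicate 1 (0.085) or 2 (0.082).

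The promoters of the collagen VI chains are shown next, with that of Col1a2 beside them, because Col6a1 and Col6a2 rose where Col6a3 and Col1a2 fell. The first of the listed RefSeq promoters is given for Col6a2, and capitals again mark motif hits. The windows are chr10:76725995-76726294, minus strand (Col6a1); chr10:76623355-76623654, minus strand (Col6a2); chr1:90843922-90844221, minus strand (Col6a3); and chr6:4505368-4505667, plus strand (Col1a2).
Col6a1: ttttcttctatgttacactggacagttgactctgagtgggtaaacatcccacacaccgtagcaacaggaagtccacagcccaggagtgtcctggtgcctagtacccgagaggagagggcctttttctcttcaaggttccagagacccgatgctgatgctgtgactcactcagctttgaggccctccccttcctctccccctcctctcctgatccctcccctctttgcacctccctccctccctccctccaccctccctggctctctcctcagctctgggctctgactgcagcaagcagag
Col6a2: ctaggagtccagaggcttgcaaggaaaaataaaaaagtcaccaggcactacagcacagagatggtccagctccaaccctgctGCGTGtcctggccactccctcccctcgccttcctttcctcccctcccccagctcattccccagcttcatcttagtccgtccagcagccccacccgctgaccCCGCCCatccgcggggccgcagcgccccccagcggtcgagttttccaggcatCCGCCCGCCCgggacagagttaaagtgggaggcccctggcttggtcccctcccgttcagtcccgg
Col6a3: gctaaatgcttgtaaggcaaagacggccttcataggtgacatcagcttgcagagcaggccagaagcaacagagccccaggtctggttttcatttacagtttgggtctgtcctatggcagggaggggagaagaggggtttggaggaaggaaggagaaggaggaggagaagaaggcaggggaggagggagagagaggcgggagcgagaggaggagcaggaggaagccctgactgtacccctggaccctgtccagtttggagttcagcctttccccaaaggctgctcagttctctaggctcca
Col1a2: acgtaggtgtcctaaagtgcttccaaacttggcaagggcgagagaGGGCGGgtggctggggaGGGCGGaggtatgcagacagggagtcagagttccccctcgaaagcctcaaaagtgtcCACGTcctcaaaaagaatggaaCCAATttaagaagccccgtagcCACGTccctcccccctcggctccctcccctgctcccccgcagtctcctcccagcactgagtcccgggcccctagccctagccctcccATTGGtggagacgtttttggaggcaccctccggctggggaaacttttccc
None of the 6 motifs was found in the windows of Col6a1 and Col6a3, which changed in opposite directions. The Col6a2 window shown held GCGTG and the GC box. The other listed Col6a2 promoter, at chr10:76623581-76623880, minus strand, held the GC box and not GCGTG. Col1a2 held ACGTG, the CCAAT box and the GC box.

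Among the multiplexins, which combine a collagen stem with proteoglycan chains, Col15a1 (chromosome 4, 47208161 to 47313167) showed the largest decrease of the fallen members in normoxia. It was at 2248 and 2391 in wild-type normoxia, 2392, 2008 and 2093 in wild-type hypoxia, 898.6, 869.5 and 981.2 in Bmal1-/- normoxia and 1136, 942.7 and 857.9 in Bmal1-/- hypoxia. The 2 genotypes were far apart, with a log2 difference of -1.34 (adjusted p = 2.2e-06, SE 0.10) in normoxia and -1.15 (adjusted p = 2.5e-06, SE 0.09) in hypoxia, or 2.53-fold and 2.22-fold lower. Its relative Col18a1 was at 2558 to 3158 in wild-type and 2501 to 3253 in Bmal1-/- libraries. Its log2 differences between genotypes were 0.00 (SE 0.07) in normoxia and 0.09 (SE 0.07) in hypoxia, and neither passed.

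The FACITs, which decorate the surface of fibrils, were divided. Col19a1 (chromosome 1, 24261890 to 24587472), known to be expressed during muscle differentiation, was at 364.1 and 382.5 in wild-type normoxia, 379.3, 357.8 and 372.3 in wild-type hypoxia, 702.5, 683.4 and 691.4 in Bmal1-/- normoxia and 656.6, 655.7 and 608.8 in Bmal1-/- hypoxia. It had one of the narrowest spreads of any member, and the log2 difference was 0.89 (adjusted p = 1.9e-06, SE 0.07) in normoxia and 0.79 (adjusted p = 1.5e-06, SE 0.06) in hypoxia. All Bmal1-/- libraries lay above all wild-type ones. Col16a1 was at 674.6 and 486.3 in wild-type normoxia, 870.2, 711.3 and 727.6 in wild-type hypoxia, 325.2, 298.6 and 457.0 in Bmal1-/- normoxia and 315.2, 339.7 and 523.7 in Bmal1-/- hypoxia. It fell in hypoxia by 1.00 on the log2 scale (adjusted p = 0.0043, SE 0.19), and its difference of -0.69 in normoxia (adjusted p = 0.063, SE 0.22) did not pass. Without Bmal1-/- normoxia replicate 3 or Bmal1-/- hypoxia replicate 3 it passed in normoxia as well (adjusted p = 0.021 and 0.025). Col12a1 was at 1250 to 1600 in wild-type and 1107 to 1447 in Bmal1-/- libraries, and Col14a1 at 4.28 to 20.6 overall; neither was called. The difference of Col12a1 in normoxia, -0.31 (adjusted p = 0.060, SE 0.10), passed in DESeq2 (0.032), with only the normoxic libraries fitted (0.036), with TMM scaling (0.049) and without wild-type hypoxia replicate 1 (0.044) or 2 (0.021).

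Of the remaining classes, only Col8a1 (chromosome 16, 57624258 to 57754737) was called. It was at 4333 and 4172 in wild-type normoxia, 3863, 3965 and 3664 in wild-type hypoxia, 3568, 4032 and 3670 in Bmal1-/- normoxia and 3242, 3363 and 3159 in Bmal1-/- hypoxia. Bmal1-/- hypoxia was the lowest group. On the log2 scale Bmal1-/- differed by -0.18 in normoxia (adjusted p = 0.065, SE 0.06) and by -0.23 in hypoxia (adjusted p = 0.0091, SE 0.05), the latter lost with no trend (0.052). DESeq2 called the normoxia difference too (0.044), so that with Col12a1 it had 9 members fallen in normoxia where limma had 7. Its relative Col8a2 was at 44.7 to 92.2 normalized counts, and Col10a1, of growth plate cartilage, at 4.96 to 19.5. Col7a1, which anchors epithelia to the dermis, ranged from 24.2 to 142.5 within the Bmal1-/- hypoxia group alone, as wide as across all 11 libraries. The transmembrane collagens Col25a1 and Col13a1, both linked to the neuromuscular junction, were at 229.3 to 331.1 and 10.7 to 17.4, and Col17a1, of skin attachment, at 7.17 to 26.2. Col26a1 was at 276.0 to 356.9. None of these was called in any comparison.

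**Figure D3:**
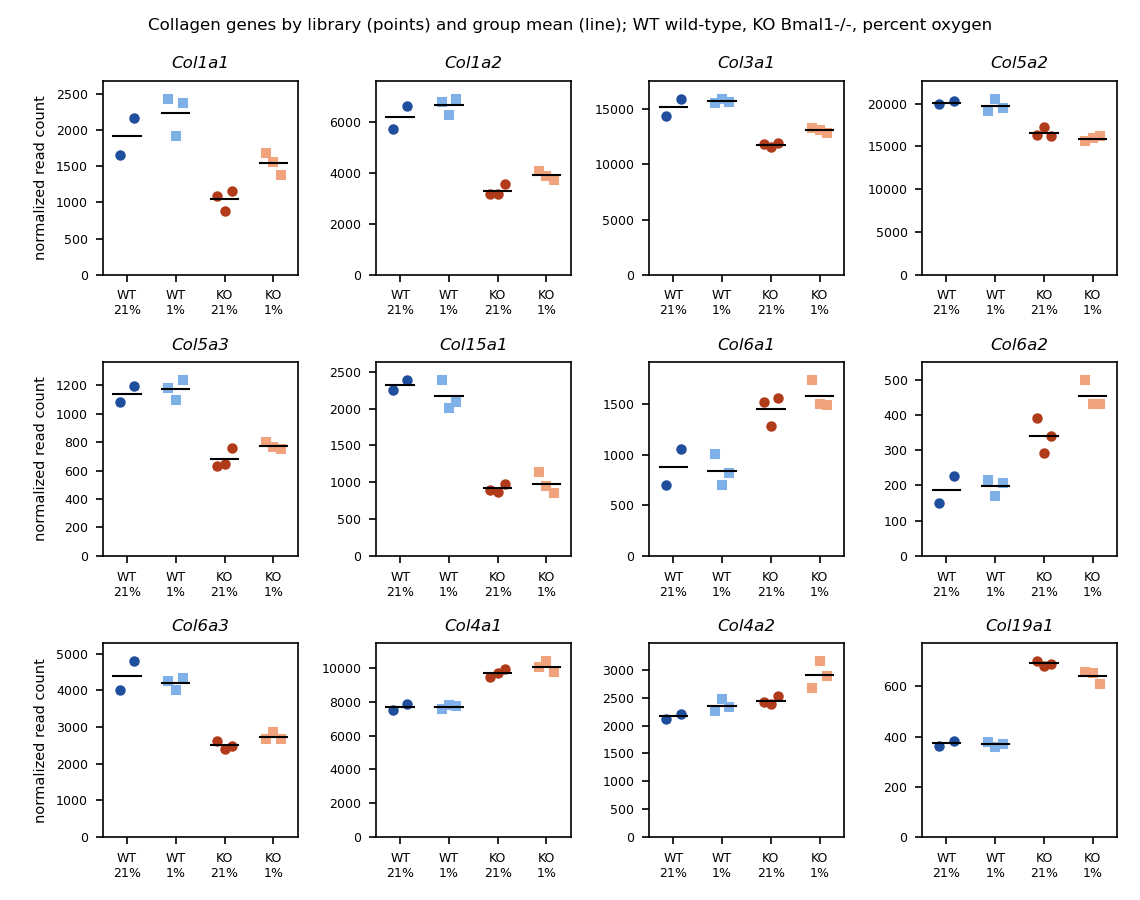
Normalized read count (y axis, from 0) of 12 collagen genes in each library (points) with the group mean (line), for wild-type (WT) and Bmal1-/- (KO) cells at 21% and 1% O2. In the panels of Col1a2, Col3a1, Col5a2, Col5a3, Col15a1 and Col6a3 all Bmal1-/- points lie below all wild-type points; in those of Col6a1, Col6a2, Col4a1 and Col19a1 all lie above.

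Summed over the 34 members, collagen normalized counts were 72854 and 78940 in wild-type normoxia, 76636 to 77442 in wild-type hypoxia, 62343 to 64411 in Bmal1-/- normoxia and 65890 to 67462 in Bmal1-/- hypoxia, or 0.265% to 0.352% of a library. The sums did not overlap between genotypes. Fibrillar genes made up 58.2% ± 0.20 (SD, n = 2) of the summed per-kb level in wild-type normoxia and 59.0% ± 0.61 (n = 3) in wild-type hypoxia, against 51.3% ± 0.55 and 51.5% ± 0.34 (n = 3 each) in Bmal1-/- normoxia and hypoxia. Basement membrane genes made up 16.0% ± 0.35 and 16.1% ± 0.42 in the wild-type groups and 22.8% ± 0.17 and 23.0% ± 0.78 in the Bmal1-/- groups. The collagen message pool of Bmal1-/- libraries therefore held a smaller fibrillar and a larger collagen IV share at either oxygen level. A share also grows when the other classes fall, so the larger collagen IV share is not all a rise of its genes. In wild-type and Bmal1-/- normoxia the mean per-kb levels were 1030 and 1298 for Col4a1 and 327.9 and 369.5 for Col4a2. No test was run on these shares. With the length of the longest transcript the fibrillar share was 63.7% and 57.1% in wild-type and Bmal1-/- normoxia, and the basement membrane share 12.29% and 18.05%.

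**Figure D4:**
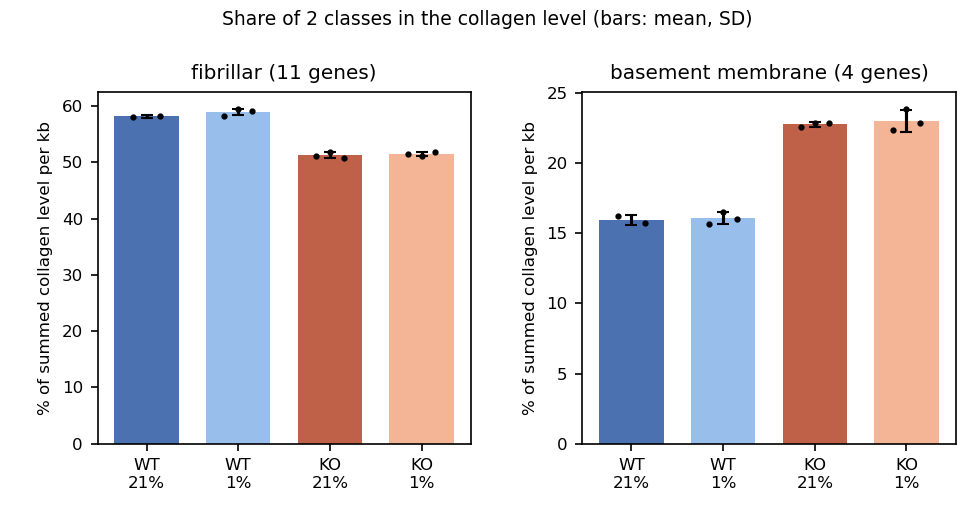
Share (%) of the summed per-kb collagen level taken by 11 fibrillar and 4 basement membrane genes; bars are group means, error bars SD and points libraries of wild-type (WT) and Bmal1-/- (KO) cells at 21% and 1% O2. Fibrillar shares lie at 58.0% to 59.5% in wild-type and 50.8% to 51.9% in Bmal1-/- libraries, basement membrane shares at 15.7% to 16.5% and 22.4% to 23.9%.

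Between oxygen levels, collagen chains were called in Bmal1-/- cells only. In wild-type cells 0 of 34 members rose and 0 fell after 6 h of hypoxia by limma, edgeR and DESeq2, with 2 at an unadjusted p under 0.05 in each, while 1.7% of all genes rose and 0.468% fell. With shares of all genes that low, 0 of 34 says little about collagen genes. The median log2 difference was 0.06 for fibrillar, 0.06 for basement membrane and -0.03 for other members, and 0.00 over all genes. In Bmal1-/- cells 3 members rose and 1 fell, beside 3.15% and 0.937% of all genes. An unadjusted p under 0.05 was reached there by 12 of 34 members in limma, 12 in edgeR and 11 in DESeq2. The share of all genes at that unadjusted threshold was not computed, here or for wild-type cells. These unadjusted counts are therefore not read as a result about collagen genes. In Bmal1-/- cells the medians were 0.19, 0.02 and 0.10, and -0.01 over all genes. The 2 hypoxia comparisons share no libraries but share the estimate of the spread, and no member passed the test of the difference between them.

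The risen members in Bmal1-/- cells were Col1a1 (log2 difference 0.57, SE 0.12, adjusted p = 0.019), Col4a2 (0.25, SE 0.06, adjusted p = 0.029) and Col3a1 (0.15, SE 0.04, adjusted p = 0.041). For these genes, all 3 hypoxic Bmal1-/- libraries were above all 3 normoxic ones. The genes were called on these same libraries, so this adds no separate evidence, and the share of all genes so separated was not computed. Col8a1 fell, by 0.21 on the log2 scale (adjusted p = 0.037, SE 0.05). Col1a2 missed the threshold at 0.24 (adjusted p = 0.0503, SE 0.06) and passed under 7 alternatives, for example with TMM scaling (0.041) or without Bmal1-/- normoxia replicate 3 (0.018). In wild-type cells the values were 0.23 (SE 0.14) for Col1a1, 0.12 (SE 0.07) for Col4a2, 0.06 (SE 0.04) for Col3a1 and -0.15 (SE 0.06) for Col8a1, none past the test. Without a trend in limma all 4 calls were lost. Without Bmal1-/- normoxia replicate 2, all 4 were lost as well, with adjusted p of 0.086 for Col1a1, 0.11 for Col4a2 and 0.15 for both Col3a1 and Col8a1. Col1a1 was also lost without Bmal1-/- hypoxia replicate 1 (0.080) or 2 (0.065), and Col4a2 without Bmal1-/- normoxia replicate 1 (0.099) or Bmal1-/- hypoxia replicate 2 (0.12) or 3 (0.081). Col3a1 was lost without any other single Bmal1-/- library or wild-type hypoxia replicate 2 or 3 (0.053 to 0.13), and Col8a1 without Bmal1-/- normoxia replicate 3 (0.0501) or any hypoxic Bmal1-/- replicate (0.058 to 0.14). Without Bmal1-/- hypoxia replicate 2 none of the 3 risen calls was kept, and Col27a1 passed in their place (0.033).

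**Figure D5:**
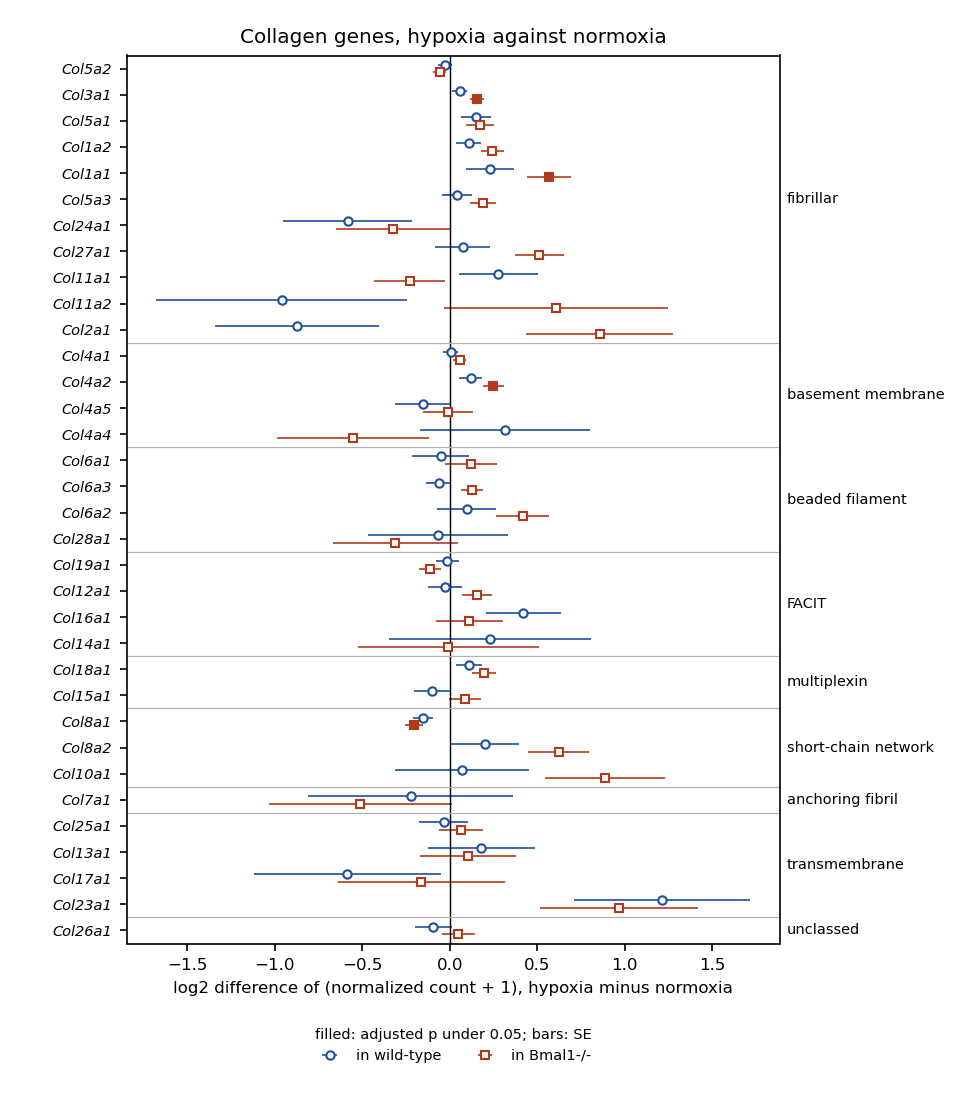
Log2 difference of (normalized count + 1), hypoxia minus normoxia, for the 34 collagen genes in wild-type and in Bmal1-/- cells; bars are standard errors and filled symbols mark an adjusted p under 0.05. Only Col1a1, Col3a1, Col4a2 and Col8a1 in Bmal1-/- cells are filled; members with wide bars, such as Col11a2 and Col2a1, have few reads.

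Calls were most frequent among abundant members, as they were among all genes. Of 13 members with a median of at least 1000 normalized counts 10 were called in any comparison, beside 22.7% of all genes at that level. Of 6 between 100 and 1000 it was 4, beside 15.9%, and of 15 under 100 it was 1, beside 9.76%. The median within-group coefficient of variation was 6.71% in the first of these sets and 33.4% in the last. Some low members varied little, such as Col4a5 at 7.80% and Col27a1 at 8.28%.

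The genes that modify, export, trim and cross-link collagen were taken from lists, and their changes are given beside those of the chains. Their counts between genotypes, and those of the markers further on, stand beside 3.44% of all genes risen and 5.66% fallen in normoxia and 3.33% and 5.61% in hypoxia. For hypoxia against normoxia the shares were 1.7% and 0.468% in wild-type and 3.15% and 0.937% in Bmal1-/- cells. Of 19 tested genes of chain folding and modification, 9 fell and 1 rose in Bmal1-/- cells in normoxia, and 8 fell and none rose in hypoxia. Among the normoxia calls, only those of Plod3, P3h1 and P4ha3 held under each alternative, and every other one was lost under at least 1. In hypoxia the P4ha3 and Colgalt1 calls held under each alternative, while others, such as that of P4ha1, were lost under at least 1. Plod3, a lysyl hydroxylase and glycosyltransferase, fell (-0.45 and -0.40 on the log2 scale; adjusted p = 8.2e-04 and 7.4e-04), as did P4ha3, a prolyl hydroxylase subunit (-0.66 and -0.81; adjusted p = 0.0019 and 1.2e-04). P3h1, a prolyl 3-hydroxylase, fell in normoxia (-0.43, adjusted p = 9.2e-04) and Colgalt1, a collagen galactosyltransferase, in both (-0.21 and -0.24; adjusted p = 0.022 and 0.0047). Colgalt1 no longer passed in normoxia when either wild-type normoxic library was left out (0.070 and 0.16), when Bmal1-/- normoxia replicate 2 was (0.081), with no trend (0.069) or with only the groups compared (0.076). With hypoxia 5 of the 19 rose in wild-type and 6 in Bmal1-/- cells, and none fell. P4ha1 rose by 1.08 and 1.16 in the 2 genotypes, P4ha2 by 1.52 and 1.37 and Plod2, the telopeptide lysyl hydroxylase, by 1.04 and 1.04. The largest rise of a called chain under hypoxia, that of Col1a1 in Bmal1-/- cells, was 0.57.

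Of 13 tested genes of export and propeptide cleavage, 4 fell and none rose in normoxia between genotypes, and 5 fell and 1 rose in hypoxia; hypoxia itself changed none in either genotype. Tll1, a propeptide-cleaving protease of the BMP1 family, fell by 1.76 and 1.61 on the log2 scale (adjusted p = 2.2e-06 and 1.4e-06). Adamts2, which removes the other propeptide, was lower at -0.86 and -0.81, and Pcolce, the enhancer of BMP1, at -0.60 and -0.55. Of 12 tested genes of fibril assembly and cross-linking, 10 fell in each genotype comparison and none rose, with medians of -0.71 and -0.61. Loxl2 and Loxl3, lysyl oxidase-like enzymes, fell by 1.49 and 1.02 in normoxia and by 1.35 and 0.94 in hypoxia. Bgn, a small proteoglycan of fibrils, was at -0.90 and -0.85, and Sparc, a collagen-binding matrix protein, at -0.46 and -0.49. Lox itself rose with hypoxia, by 0.30 in wild-type and 0.36 in Bmal1-/- cells, as the 1 gene of that list called in wild-type cells; 3 rose in Bmal1-/- cells.

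Of 8 tested collagen receptors, 3 fell in normoxia and 4 in hypoxia between genotypes, while none and 2 rose. Mrc2, an endocytic collagen receptor, was at -0.71 and -0.59, and the integrin chain Itga11, a receptor for collagen I, at -1.06 and -1.45. The chain Itga1, known to bind collagen IV, fell by 1.12 in normoxia and by 0.67 in hypoxia. Leaving out wild-type normoxia replicate 2 ended the Itga11 call in normoxia (adjusted p = 0.11), and the Itga1 call in hypoxia was lost without any 1 wild-type hypoxia replicate (0.0502 to 0.062) or Bmal1-/- hypoxia replicate 2 (0.079). In Bmal1-/- cells 2 receptors rose with hypoxia, Ddr1 (0.22) and Mrc2 (0.33), and in wild-type cells none. The Mrc2 call was lost in edgeR (adjusted p = 0.054), with no filter on low values (0.056), without any 1 hypoxic Bmal1-/- library (0.075 to 0.15), without Bmal1-/- normoxia replicate 1 (0.12) or 2 (0.17) and without wild-type hypoxia replicate 1 (0.054). That of Ddr1 was lost without Bmal1-/- normoxia replicate 2 (0.089) or Bmal1-/- hypoxia replicate 2 (0.066) or 3 (0.081), and with no trend both were lost (0.074 for Ddr1 and 0.14 for Mrc2). Of 5 tested proteases that act on collagen, 3 fell in both genotype comparisons and none changed with hypoxia. These were the membrane-bound collagenase Mmp14 (-0.64 and -0.53), cathepsin K, Ctsk (-0.68 and -0.56), and Fap (-1.19 and -1.12). The Mmp14 calls held under each alternative. For Ctsk, leaving out wild-type normoxia replicate 2 ended the normoxia call (adjusted p = 0.084), and the hypoxia call was lost without wild-type hypoxia replicate 1 or Bmal1-/- hypoxia replicate 2 (0.058 each). Fap was lost with no trend (0.087 and 0.072) and, in normoxia, with no filter (0.053). Its normoxia call also ended on leaving out wild-type normoxia replicate 2 (0.29) or Bmal1-/- normoxia replicate 1 (0.094) or 2 (0.096), and its hypoxia call was lost without wild-type hypoxia replicate 1 (0.077) or 3 (0.094) or Bmal1-/- hypoxia replicate 1 (0.086) or 3 (0.11). No gene of these 5 lists passed the interaction test in limma.

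Markers of other cell types moved with genotype. Of 10 connective tissue markers 8 were tested, and 7 fell in each genotype comparison, among them Pdgfra (-1.38 and -1.29), Mfap5 (-1.67 and -1.78) and Thy1 (-0.72 and -0.76). Their summed level was 3611 to 3767 in wild-type normoxia, 3853 to 4036 in wild-type hypoxia, 1930 to 2228 in Bmal1-/- normoxia and 2188 to 2399 in Bmal1-/- hypoxia. Dpp4 and Pi16, which define connective tissue progenitors, were near 0, at no more than 3.21 and 4.22 normalized counts. Of 8 markers of smooth muscle cells and pericytes, 5 fell in each comparison and none rose. Pdgfrb (-1.40 and -1.21) and Cspg4 (-1.41 and -1.07) were among those that fell, and Myh11 was at 2.28 to 14.1. Means of Rgs5 were higher in Bmal1-/- than in wild-type cells in normoxia (524.7 and 444.4) and hypoxia (567.1 and 522.6), not called. The summed level of the 8 was 38380 to 39677 and 34400 to 35290 in wild-type normoxia and hypoxia and 31805 to 32191 and 28541 to 28709 in Bmal1-/- normoxia and hypoxia. Acta2 made up most of this sum, with group means of 24231 to 31505, and differed by only -0.20 and -0.18 between genotypes. The part of connective tissue cells, smooth muscle cells and pericytes in the fall of the fibrillar genes, Col6a3 and Col15a1 was not tested. The list of assembly genes shares Dcn and Lum with the connective tissue markers and Fmod with the tendon markers.

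Of 8 myogenic markers, 2 rose in normoxia and 4 in hypoxia in Bmal1-/- cells and none fell. Myf5 was higher by 0.59 and 0.51 and Chrna1 by 0.19 in both, but the median over the list was only 0.04 in normoxia and 0.12 in hypoxia. In normoxia the means of Pax7 (1372 and 1200), Myod1 (9313 and 8538) and Cdh15 (2286 and 1962) were lower in Bmal1-/- than in wild-type cells, none past the test. Chrna1 was the most abundant of the list, with means of 19698 and 22539. The myogenic sum was 52882 to 53468 in wild-type normoxia, 48098 to 51215 in wild-type hypoxia, 55397 to 58498 in Bmal1-/- normoxia and 55957 to 56214 in Bmal1-/- hypoxia. Its part in the rise of Col4a1, Col6a1, Col6a2 and Col19a1 was not tested. None of 3 tested tendon markers was called, with Tnmd at no more than 6.25 normalized counts. None of 3 tested endothelial and 2 tested leukocyte markers was called either. Of 2 tested Schwann cell markers Ngfr fell in both comparisons (-0.75 and -0.62), and that list summed to 173.2 to 289.1 over the libraries. The adipocyte list had 1 of 4 genes in the table, at no more than 2.05 normalized counts.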

How the data were processed

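RNA was sequenced from 11 libraries in 4 groups. The submitters' processing notes name the mm10 build and the tools STAR, HTSeq, RSEM, DESeq2, bcl2fastq and Picard; versions, annotation and the strand setting of the counting are not given in the sources used here. The deposited table holds a signal per Ensembl gene, read counts that the authors divided by a size factor per library. Dividing by each library's step gave back whole reads for 100% of values (tolerance 0.01 read), with totals of 18707697 to 33613328. No column was left unused. Of 22104 rows, 21805 had a symbol in the GRCm38 annotation.

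Kept were genes that reached a value of 10 in 2 or more libraries, and limma 3.58.1 (R 4.3.3) with a mean-variance trend was fitted to log2(deposited value + 1) over all 4 groups, with Benjamini-Hochberg adjustment over 14729 genes; the script was tested on simulated data. The pseudocount makes fold changes of low genes too small. Fits to the recovered reads with edgeR 4.0.16 (quasi-likelihood) and DESeq2 1.42.0 were alternatives; edgeR called 433 genes higher and 811 lower between genotypes in normoxia, and 519 and 910 in hypoxia. Other alternatives were pseudocounts of 0.5 and 5, no filter, TMM scaling, no trend, only the groups compared, and each library left out. Replicates of a group differed by more than sampling noise in every pair. Named were Arntl, collagen genes past the filter, with full values for those called in any comparison and the highest per class, and up to 3 called genes per other list and comparison. Members and lists were chosen with earlier results of these data known. Exons shared with other genes made up at most 1.44% of a member's exons. Promoter sequences are from RefSeq (GRCm38.p6).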

Additional observations from a re-analysis of the deposited data

How the results depend on the processing

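Of 30 calls of a collagen gene in a comparison, 21 held under all 8 alternatives and 11 fits with a library left out, 9 were lost under at least 1, and none changed direction. Hypoxia in Bmal1-/- cells was the least stable comparison. Its risen members went from 3 to 0 with no trend, and to between 0 and 4 with single libraries left out. Its 1 fallen member became 0 with no filter on low values, with no trend and with only the groups compared, and 0 or 1 with single libraries left out. Between genotypes in normoxia, 4 risen members became 2 without wild-type normoxia replicate 1 and between 2 and 5 over all libraries left out. Some uncalled members passed with 1 library left out. Between genotypes in normoxia, Col8a1 passed as lower in Bmal1-/- cells without Bmal1-/- normoxia replicate 2 (limma adjusted p = 0.021). Without the same library the fibrillar gene Col11a1 passed as higher in Bmal1-/- cells (0.016). With hypoxia in Bmal1-/- cells, Col27a1 passed as higher without Bmal1-/- hypoxia replicate 2 (0.033). Col5a3 did so without Bmal1-/- normoxia replicate 3 (0.043). Why calls were gained or lost was not tested, and each fit with a library left out also has fewer samples. DESeq2 called 9 members fallen between genotypes in normoxia where limma called 7, and edgeR called 7. With 2 wild-type normoxic libraries, comparisons that use them rest on the fewest samples. No paired analysis was possible because the labels give the groups no shared replicate numbers. The median spread within groups was higher among members under 100 normalized counts than among those of at least 1000, and what depth contributed to it was not tested.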
